A study of Danio rerio with 16 samples.

Results

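The proteasome genes of zebrafish (Danio rerio) larvae were followed across a 7-day exposure to PFBA (perfluorobutanoic acid), which is a perfluoroalkyl acid of short chain length. The genes were taken by name, as every gene whose lower-case symbol begins with psm, a letter from a to g and a digit, together with pomp. The rule found 57 of the 26183 genes in the deposited count tables, and 56 of them passed the filter on low counts. They comprised 21 genes of the 20S core (9 of the alpha ring, 7 constitutive beta and 5 inducible-type beta subunits) and 22 genes of the 19S cap (7 ATPases and 15 non-ATPases). The remaining 14 were 4 activators, the inhibitor psmf1, 7 assembly chaperones, and psmc3ip and psme3ip1, which share the prefix but are partner proteins by name. Both are shown as a role of their own and are left out of the read shares. They are included in the counts and medians over the 56 genes. PSMD4 (ENSDARG00000104952) failed the filter; it overlaps psmd4a on the same strand over 9886 bases and held a read in 1 control library only. The subunit genes psma5, psme1, psmb11a and psmb11b were not analysed here.

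The proteasome degrades proteins that carry chains of ubiquitin and recycles them to peptides. Its barrel-shaped core is built from alpha rings, which gate the entrance, and beta rings, of which psmb5, psmb6 and psmb7 carry the catalytic sites. A cap of ATPases (psmc genes), which unfold the substrate, and non-ATPases (psmd genes), which bind and strip ubiquitin, sits on the core. Psme activators can replace the cap, and in immune cells the inducible subunits psmb8a, psmb9a and psmb10 take the places of psmb5, psmb6 and psmb7. In animal cells a drop in proteasome capacity is known to raise the transcription of core and cap genes together.

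Messenger RNA of whole larvae, 7 days old, was sequenced after 7 days in water holding the solvent alone (DMSO, 4 control libraries) or with added PFBA, in 3 libraries at 0.1 µg/L, 4 at 1 µg/L and 5 at 10 µg/L. No strain, transgene or mutation is named in the labels, which do not say whether a library was made from 1 larva or a pool or came from a separate clutch, so p-values measure the spread between these libraries. Libraries are called by the number in the deposited table, 1, 3, 4 and 5 for controls, 1, 2 and 3 at 0.1 µg/L, 1, 2, 4 and 5 at 1 µg/L and 1, 2, 3, 4 and 5 at 10 µg/L, and values follow that order. In bulk RNA of whole larvae, fewer cells of a type and less RNA per cell cannot be told apart.

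Total counts ran from 9708464 to 13862232 per library, and 4 libraries stood apart. Libraries 1 and 2 at 0.1 µg/L had scores of 174.7 and 101.2 on principal component 1, where the other 14 ran from -43.8 to 9.0, and had the lowest scaling factors (0.581 and 0.742 against 0.928 to 1.14). Library 5 at 1 µg/L had the circadian repressor nr1d1 at 617 CPM (read counts scaled for library size), against 547 to 762 CPM in controls and 19 to 26.5 CPM in the other 3 libraries of its group. Library 3 at 10 µg/L had a score of -99.6 on principal component 2, where the other 15 ran from -54 to 52.1. Calls and median log2 fold changes of the proteasome genes against control are given with and without these libraries. Fold changes of the lists of related genes are given with all libraries only.

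In control larvae the constitutive core genes had the highest levels and most inducible subunits had low levels. Per kilobase of gene length, psmb4, a constitutive beta subunit, was the highest at 86.8 CPM per kb, and the constitutive beta genes had a median of 54.3 CPM per kb. The medians were 37.8 CPM per kb for the alpha ring, 32.8 for the ATPases, 12.7 for the non-ATPases and 15.9 for the assembly chaperones. The 5 inducible-type beta genes ran from 0.361 CPM per kb for psmb8a to 4.17 for psmb10. Activators ran from 1.87 CPM per kb for psme2 to 11.1 for psme4b, and psmf1 stood at 10.3. Together the 55 genes that are proteasome genes by name, without the 2 others, took 0.189% to 0.287% of control reads.

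**Figure D1:**
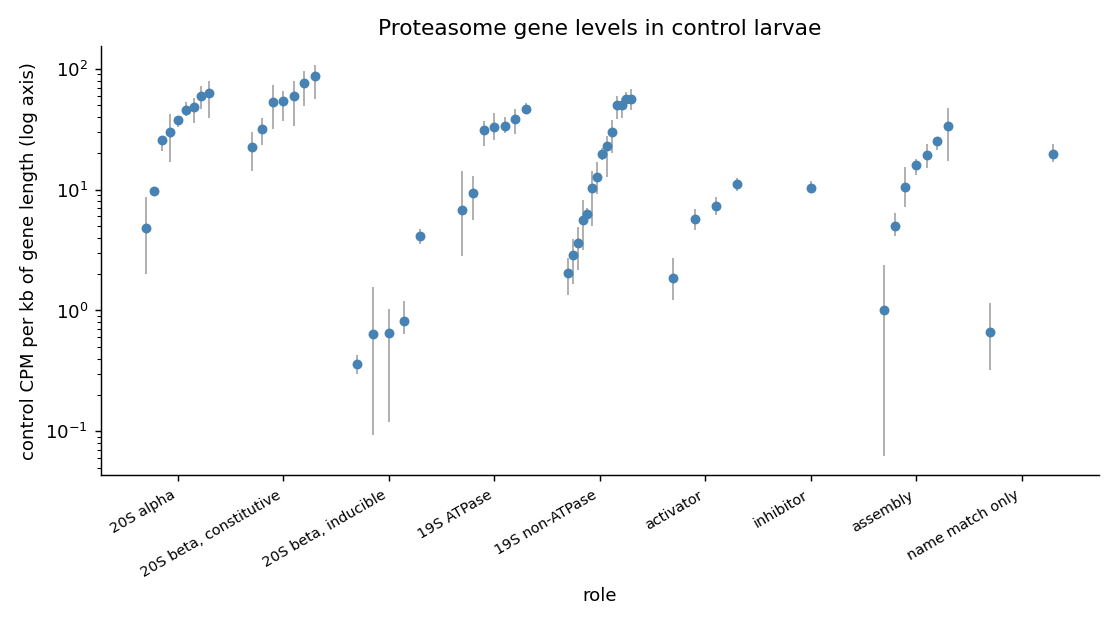
Mean CPM per kilobase of gene length in the 4 control libraries for the 56 genes that passed the filter, by role, on a log axis; lines run from the lowest to the highest control. Constitutive beta genes reach 86.8 CPM per kb (psmb4), and inducible beta genes lie between 0.361 and 4.17 CPM per kb.

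Counting may not separate genes that are named as copies, whose sequences were not compared here. The pairs psmd2 and PSMD2 (both on unplaced scaffolds), psma2 and PSMA2, psmc1a and psmc1b, psma6a and psma6b, psmd4a and psmd4b, psmd11a and psmd11b, and psme4a and psme4b may share reads, and psmb8a and psmb13a overlap on the same strand of chromosome 19 over 32770 bases, with psmb9a and psmb12 inside them on the other strand. Of the 57 genes 19 overlap another gene, 7 of them on the same strand. Each is reported as counted, with its copy's sum where it matters.

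At 0.1 µg/L, most core and cap genes were above the controls in libraries 1 and 2 and near them in library 3. Over the core and cap roles the median ratio to the control mean was 2.60 to 4.22 in library 1, 2.16 to 3.12 in library 2 and 0.983 to 1.08 in library 3. Single core and cap genes ran from 0.527 to 7.65, from 0.538 to 3.84 and from 0.589 to 1.64 in the same order. None of the 56 genes passed the edgeR quasi-likelihood test at an adjusted p under 0.05 (0 of 19092 genes, 0.0%, passed), and their lowest adjusted p was 0.0858. At an unadjusted p under 0.05, 44 of 56 were higher and none lower, against 12.2% of all genes higher and 21.8% in either direction. The median log2 fold change was 1.02 over the 56 genes and -0.09 over all genes. Libraries 1 and 2 both lay above each of the other 14 libraries of the series for 44 of the 56 genes, against 14.3% of all genes, and for 18 of 21 core and 18 of 21 tested cap genes.

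The summed level of the 21 core genes was 1162, 1116, 904 and 717 CPM in the controls and 3993, 2830 and 999.9 CPM at 0.1 µg/L. The sum of the cap genes was 1130, 1146, 853 and 746 CPM in the controls and 3318, 2612 and 966 CPM at 0.1 µg/L. Library 3 lay inside the control range on both sums. These sums depend on the scaling factors, which were lowest in libraries 1 and 2. As a share of unscaled reads, the 55 proteasome genes by name took 0.454%, 0.434% and 0.245% at 0.1 µg/L, against 0.189% to 0.287% in controls. The core sum stood at 1.20 times the cap sum in library 1, against 0.962 to 1.06 in the controls.

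**Figure D2:**
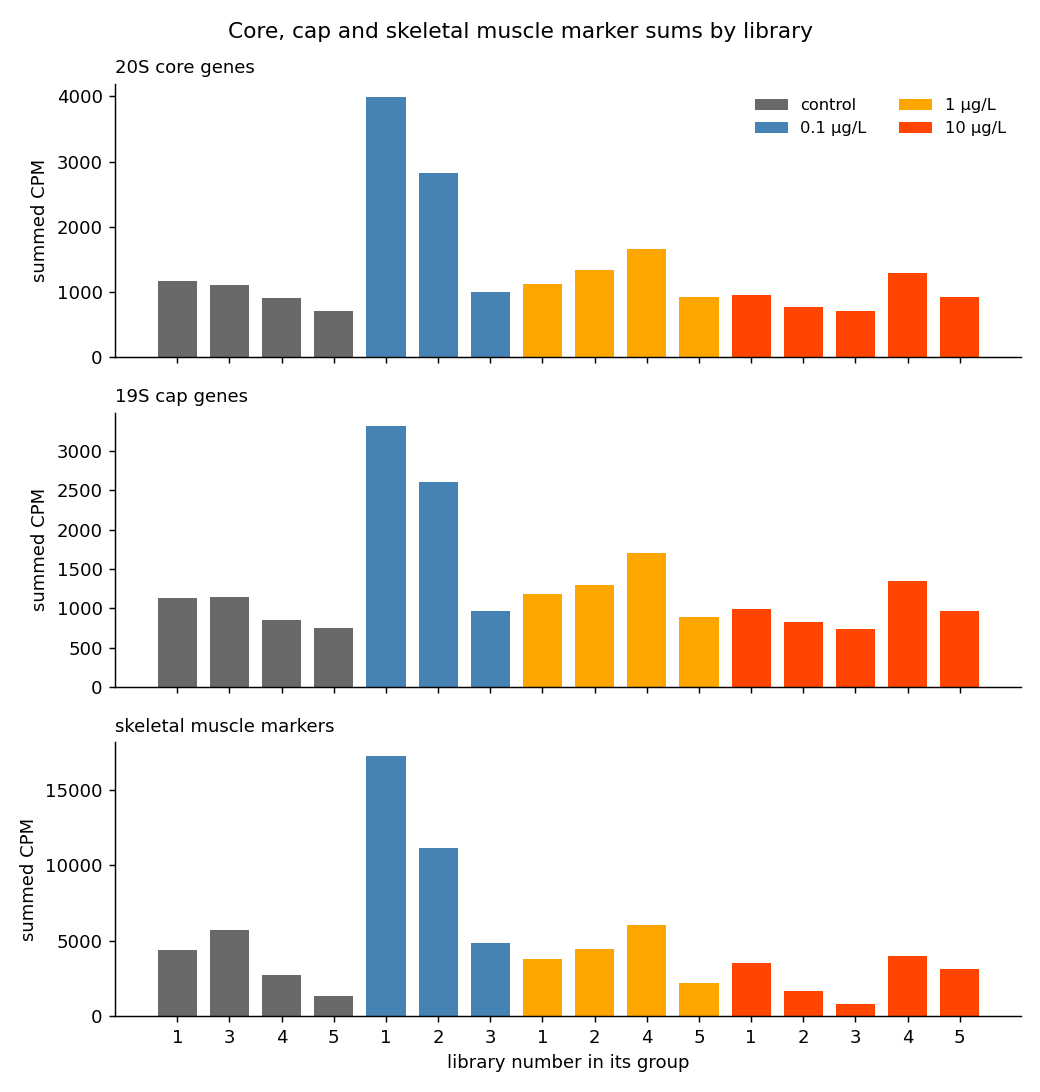
Summed CPM of the 20S core genes, the 19S cap genes and 5 skeletal muscle markers in each of the 16 libraries, coloured by group; bars start at 0. Libraries 1 and 2 at 0.1 µg/L are the highest in each panel, and the lowest bar of the controls (library 5), of 1 µg/L (library 5) and of 10 µg/L (library 3) is the same library in each panel.

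The alpha ring had ratios to the control mean with a median of 3.56 in library 1, 2.57 in library 2 and 1.02 in library 3. The gene psma1, an alpha ring subunit (ENSDARG00000101560, GRCz11 chromosome 25, 37483308 to 37489917), was at 139.8, 122, 109 and 108 CPM in the controls and at 599.8, 376 and 122 CPM at 0.1 µg/L. Libraries 1 and 2 were far above the control range and library 3 was within it, for a log2 fold change of 1.61 ± 0.34 (SE; edgeR adjusted p = 0.0858). The ring subunit psma4 was at 105, 92.6, 81.9 and 67.4 CPM in the controls and at 393, 319 and 84.9 CPM at 0.1 µg/L. Its log2 fold change was also 1.61 ± 0.35 (edgeR adjusted p = 0.0858). In psma3 the values were 73.8, 66.1, 59.1 and 45.1 CPM in the controls and 217, 165 and 63.1 CPM at 0.1 µg/L. The gene psma8, the highest of the ring per kilobase and listed by RefSeq with the synonym psma7, was at 106, 105, 79.9 and 52.4 CPM in the controls and at 301, 220.0 and 99.9 CPM at 0.1 µg/L. PSMA2 was at 47.1, 50.4, 49 and 45.9 CPM in the controls and at 125, 103 and 41.4 CPM at 0.1 µg/L, and its sum with psma2 was 237, 194 and 85.4 CPM at 0.1 µg/L against 82.7 to 99.5 CPM in the controls. In all 5 genes library 3 stood apart from the pair above it. The lowest gene of the ring per kilobase, psma6l, was at 2.89 to 12.4 CPM in the controls and 16.7, 13.0 and 8.44 CPM at 0.1 µg/L.

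The constitutive beta ring had the highest ratios of any role in library 1, with a median of 4.22 there, 3.12 in library 2 and 0.997 in library 3, and 7 of its 7 genes were above the other 14 libraries in both. The subunit psmb6, which carries the caspase-like site (ENSDARG00000002240, GRCz11 chromosome 23, 44536926 to 44546152), was at 77.4, 83.1, 66.5 and 46.4 CPM in the controls and at 381, 245 and 68 CPM at 0.1 µg/L. Its log2 fold change was 1.76 ± 0.39 (edgeR adjusted p = 0.0858), with library 3 among the controls. For psmb7, which carries the trypsin-like site, the values were 119, 117, 83.7 and 61.7 CPM in the controls and 457, 306 and 94.7 CPM at 0.1 µg/L. The chymotrypsin-like subunit psmb5 was at 29.9, 39.4, 30.4 and 18.6 CPM in the controls and at 83.4, 55.1 and 36 CPM at 0.1 µg/L, the smallest difference of the catalytic genes at a log2 fold change of 0.97 ± 0.28. The structural subunit psmb2 was at 64.6, 60.4, 44.1 and 38.2 CPM in the controls and at 249, 167 and 51.7 CPM at 0.1 µg/L. For psmb3 the values were 66.5, 54.6, 41.7 and 29 CPM in the controls and 171, 149.5 and 47.5 CPM at 0.1 µg/L. The highest of the ring per kilobase, psmb4, was at 103, 100.1, 78.3 and 54.1 CPM in the controls and at 321, 246 and 85.4 CPM at 0.1 µg/L. Libraries 1 and 2 exceeded each control in the 6 genes, and library 3 lay inside the control range.

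Of the inducible-type beta subunits only psmb10, which replaces psmb7, had more than a few CPM. It was at 8.34, 10.1, 9.55 and 7.47 CPM in the controls and at 24, 22.7 and 9.56 CPM at 0.1 µg/L, with libraries 1 and 2 above each control (log2 fold change 1.08 ± 0.30, edgeR adjusted p = 0.0896). The counterpart of psmb5, psmb8a, was at 0.695, 0.519, 0.485 and 0.643 CPM in the controls and at 4.48, 1.56 and 0.345 CPM at 0.1 µg/L. The counterpart of psmb6, psmb9a, was at 0.695, 1.19, 0.138 and 0.964 CPM in the controls and at 0.497, 0.415 and 0.861 CPM at 0.1 µg/L, and had libraries 1 and 2 under the control mean of 0.746 CPM. For psmb13a the values were 0.541, 0.816, 0.138 and 2.33 CPM in the controls and 4.23, 0.83 and 1.03 CPM at 0.1 µg/L. These 3 genes had low counts, and they overlap one another.

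In the cap, the ATPases had median ratios of 2.60, 2.16 and 0.983 in libraries 1, 2 and 3, and the non-ATPases 2.66, 2.38 and 1.05. The ATPase psmc2 (ENSDARG00000020101, GRCz11 chromosome 4, 14926948 to 14932359) was at 75.9, 70.1, 64.1 and 62.2 CPM in the controls and at 270.4, 201 and 66.9 CPM at 0.1 µg/L, at a log2 fold change of 1.40 ± 0.32 (edgeR adjusted p = 0.0858). For the ATPase psmc5 the values were 67.7, 72.5, 54.6 and 45.4 CPM in the controls and 205, 159 and 66.2 CPM at 0.1 µg/L. The ATPase psmc6 differed from the other 6, at 4.42 to 22.3 CPM in the controls and 5.59, 5.71 and 10.4 CPM at 0.1 µg/L, so that it stayed within the control range. Among the non-ATPases, the scaffold subunit psmd3 (ENSDARG00000018124, GRCz11 chromosome 19, 48049202 to 48059334) was at 126, 121, 89.7 and 84.3 CPM in the controls and at 570.4, 405 and 110.4 CPM at 0.1 µg/L, at a log2 fold change of 1.78 ± 0.41 (edgeR adjusted p = 0.0858), and psmd3 had the highest fold of the cap. The deubiquitinase psmd14, which strips ubiquitin from bound substrates, was at 69.2, 64.4, 53.1 and 44.3 CPM in the controls and at 240.1, 175 and 60.6 CPM at 0.1 µg/L. Another lid subunit, psmd13, was at 86.3, 86.2, 72.3 and 59.1 CPM in the controls and at 304, 235 and 64.7 CPM at 0.1 µg/L. In both, libraries 1 and 2 lay above the control range. The sum of psmd2 and PSMD2, the copies of a base scaffold subunit, was 75.2, 81.3 and 46.3 CPM at 0.1 µg/L against 18.4 to 47.9 CPM in the controls.

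Of the 4 activators, psme2 alone lay above the other 14 libraries in libraries 1 and 2. The genes psme4a and psme4b encode copies of the activator known in mammals as PA200, and psme3 the nuclear activator known as PA28 gamma. The level of psme4a was 62.7, 44.6, 57.7 and 46.3 CPM in the controls and 68.9, 61.4 and 54.6 CPM at 0.1 µg/L, and that of psme4b was 74.5, 72.3, 87.6 and 93.5 and 49.9, 59.9 and 82.4 CPM. Libraries 1 and 2 were the lowest of all 16 for psme4b, while psme4a had a log2 fold change of 0.22 ± 0.29. The activator psme3 was at 10.6, 11.4, 13.3 and 8.84 CPM in the controls and at 12.3, 11.4 and 12 CPM at 0.1 µg/L, with every 0.1 µg/L library inside the control range. The interferon-induced activator of mammals, psme2, was at 7.46, 6.85 and 2.84 CPM, against 2.08 to 4.66 CPM in the controls. The inhibitor psmf1 was at 13.6, 12.2, 12 and 15 CPM in the controls and at 44.9, 28.2 and 14.1 CPM at 0.1 µg/L, higher in libraries 1 and 2 as the core was.

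The assembly chaperones had median ratios of 2.89, 2.05 and 1.07 in libraries 1, 2 and 3. The maturation factor pomp, which is degraded as the first substrate of each new core, was at 27.5, 34, 22.4 and 12.3 CPM in the controls and at 112, 81.6 and 28.2 CPM at 0.1 µg/L, at a log2 fold change of 1.62 ± 0.40 (edgeR adjusted p = 0.0858). The alpha ring chaperone psmg1 was at 17.7, 20.5, 22.6 and 23.6 CPM in the controls and at 66.5, 43.2 and 22.7 CPM at 0.1 µg/L. Both had library 3 inside the control range. For psmd5, a chaperone of the ATPase base, the values were 8.8, 13.4, 10.7 and 9.32 CPM in the controls and 22.6, 18.9 and 14 CPM at 0.1 µg/L, and it was the one gene of the 56 with no overlap between the groups on the higher side, where 3.57% of all genes had none. The chaperone psmg3 had a log2 fold change of 0.39 ± 0.21. Of the 2 genes that are partner proteins by name, psme3ip1 was at 24.2 to 33.8 CPM in the controls and 84.2, 53.8 and 30.7 CPM at 0.1 µg/L, and psmc3ip stayed at 1.42 CPM or less in all libraries.

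**Figure D3:**
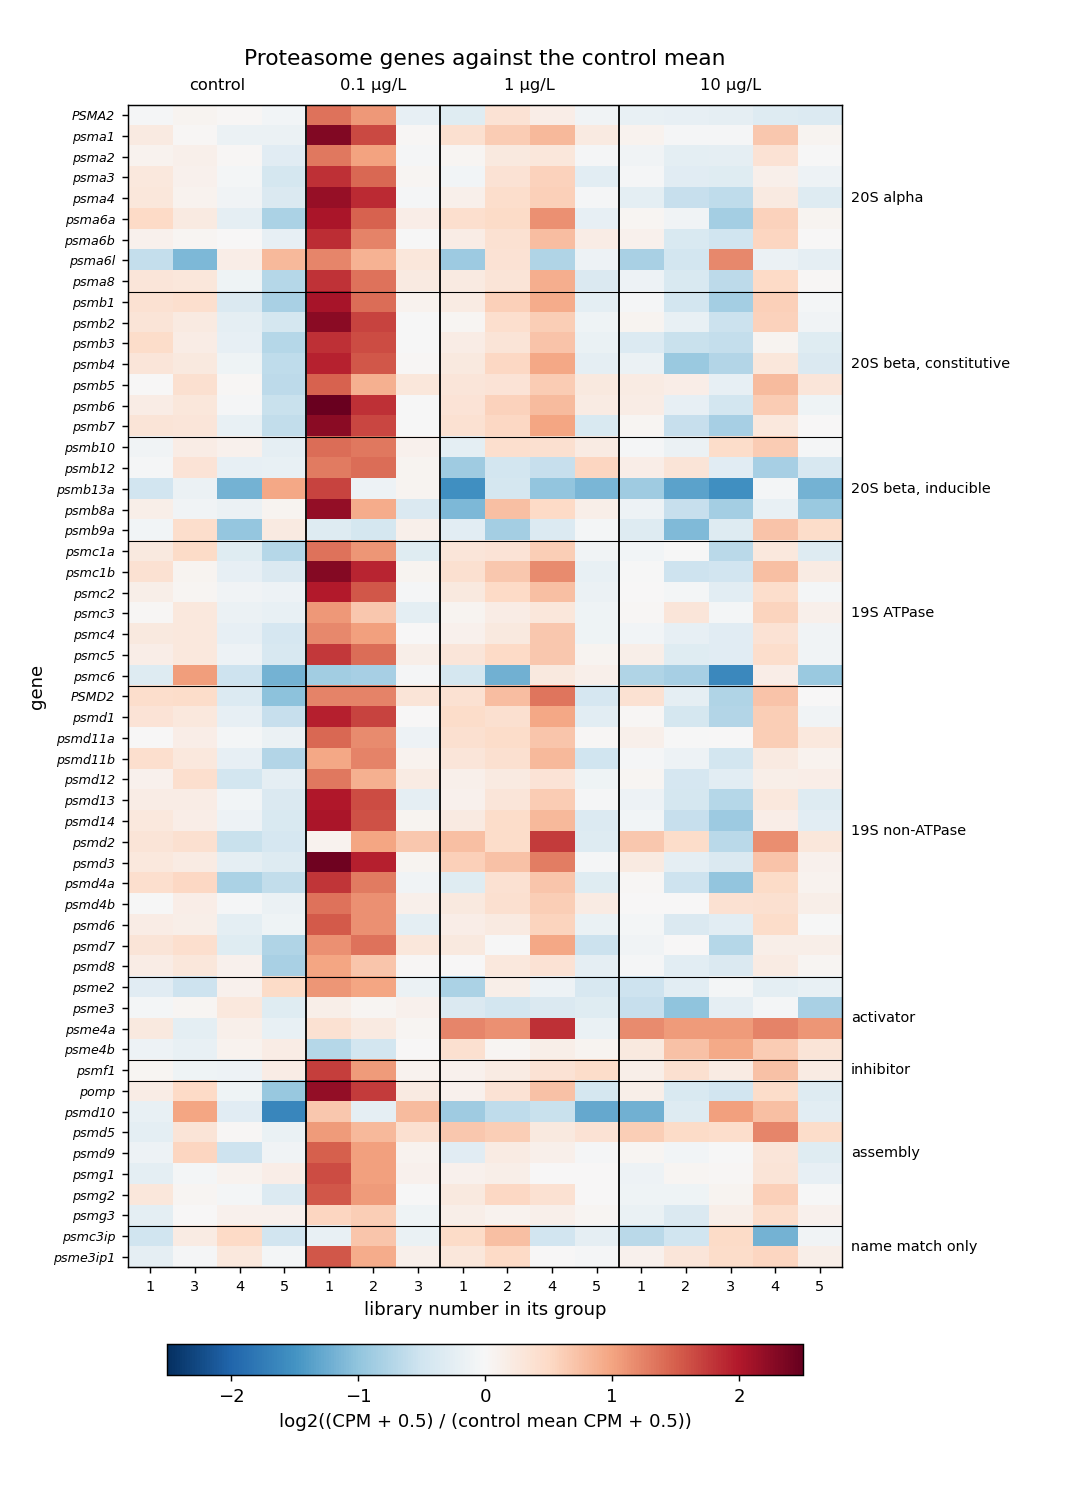
Log2 ratio of CPM to the control mean (0.5 CPM added to both) for the 56 tested genes, in rows by role, in each of the 16 libraries, in columns by group; red is higher and blue lower than the control mean. Libraries 1 and 2 at 0.1 µg/L are red in most core, cap and assembly rows and library 3 is not; psme4a is red at 10 µg/L and in 3 of 4 libraries at 1 µg/L.

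Without libraries 1 and 2, the median log2 fold change of the 56 genes at 0.1 µg/L was 0.07 and none had an unadjusted p under 0.05; this leaves 1 library, assumed to vary like the other groups. Without library 3, 46 genes passed (45 higher and 1 lower), when 32.0% of all genes did; DESeq2 on all libraries called 36 higher, when it called 7.5% of all genes. Markers of several tissues were higher in the same libraries. The summed level of 5 skeletal muscle markers was 1357 to 5725 CPM in controls and 17258, 11145 and 4841 CPM at 0.1 µg/L, with 4 of 5 markers above all controls in libraries 1 and 2. All 5 lens and all 5 liver markers and 4 of 4 exocrine pancreas and 4 of 5 intestine markers were also above all controls in both, with liver sums of 2129, 1743 and 615 CPM against 138 to 862 CPM. The sum of 5 neuron markers was 3804, 4369 and 4326 CPM against 4327 to 5536 CPM, and 2 of 5 neuron markers were below all controls in both libraries. Of all genes, 32.3% in library 1 and 28.5% in library 2 were above all controls, and 42.3% and 36.2% were below. None of these markers was at 0 in every library; the part of tissue makeup in the proteasome values was not tested.

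Within each of the other groups, the core and cap sums and the muscle, liver and exocrine pancreas marker sums were lowest in the same library. The lens and intestine sums shared that order only in part. The lens sum was lowest in that library at 1 µg/L only (631 CPM), and the intestine sum in the controls only (34.1 CPM). The lens sum was 751 CPM in control library 5 against 664 to 919 CPM in the group, and 1987 CPM in library 3 at 10 µg/L, the second highest of its group. Control library 5 was the lowest of its group for 33 of 42 tested core and cap genes and had the lowest muscle, liver and pancreas marker sums (1357, 138 and 242 CPM). In the 1 µg/L group library 4 was the highest for 35 of 42 and library 5 the lowest for 34 of 42, with muscle sums of 6025 and 2179 CPM. At 10 µg/L library 4 was the highest for 37 of 42 and library 3 the lowest for 27 of 42, with muscle sums of 3997 and 838 CPM. Neuron marker sums ran the other way, at 3540 CPM in library 4 and 5110 CPM in library 3. Over all genes, those shares were 26.7% to 31.9% lowest and 28.3% to 28.4% highest. Most core and cap genes were thus lowest in the same library of their group, in the controls as at each dose, but not all were. The alpha ring gene psma6l was highest in control library 5 (12.4 CPM) and in library 3 at 10 µg/L (16.5 CPM).

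At 1 µg/L, the core and cap genes were slightly above the controls on average and none passed the test. No proteasome gene was called, when 13 genes (0.0681% of all) were, and 2 had an unadjusted p under 0.05, psme4a and psmd5, when 4.89% of all genes did. The log2 fold change was above 0 for 48 of 56 genes, when 47.8% of all genes were above 0, and the median was 0.30 against -0.02 over all genes. That median was 0.17 without library 4, 0.17 without control library 5 and 0.16 with the replicate number as a block. It was 0.40 without library 5 of this dose, which stood apart, 0.39 without control library 1 and 0.38 without control library 3. The core sum was 1122, 1343, 1655 and 928 CPM and the cap sum 1176, 1295, 1705 and 885 CPM in libraries 1, 2, 4 and 5. Libraries 2 and 4 stood above all controls on both sums and library 1 on the cap sum, and library 5 lay inside the control range on both, so the groups overlapped.

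The non-ATPase psmd3 was at 159, 175, 255 and 104 CPM, with 3 of 4 libraries above each control (log2 fold change 0.72 ± 0.38, edgeR adjusted p = 0.998). In psma1, at 159, 186, 211 and 141 CPM, all 4 libraries were above the highest control of 139.8 CPM, as they were for psma6b and psmd4b, and psme3 at 8.45, 7.84, 8.43 and 8.8 CPM lay below all controls. Such separation was seen on the higher side in 2.8% of all genes and on the lower side in 2.65%. Not all core genes are printed at this dose. Among those printed, the values were 57.9, 78.5, 91 and 51.1 CPM for psma3, 94.8, 118, 131 and 84.9 CPM for psma4, 100.02, 107, 162 and 67 CPM for psma8 and 39.2, 61.6, 53.8 and 45.5 CPM for PSMA2. In the beta ring they were 53.7, 69.9, 80.1 and 48 CPM for psmb2, 54.7, 59.8, 78.5 and 42.5 CPM for psmb3 and 99.5, 120.2, 165 and 72 CPM for psmb4. All 7 of these peaked in library 2 or 4. The catalytic subunits were at 36.4, 37.7, 46.1 and 35.3 CPM for psmb5, 86.3, 102, 118 and 78.4 CPM for psmb6 and 124, 137, 189.9 and 73.2 CPM for psmb7.

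Library 5 was the lowest of the group for each of these 3 genes. In the cap the levels were 80.4, 95.8, 116 and 61.8 CPM for psmc2 and 74.2, 85.2, 96 and 63.4 CPM for psmc5. The lid subunits were at 81.4, 94.3, 118 and 74.4 CPM for psmd13 and 67.1, 79.2, 102 and 45.3 CPM for psmd14. These 4 cap genes had library 4 highest and library 5 lowest. The chaperones were at 26, 30.9, 40.3 and 17.7 CPM for pomp and 22.9, 23.2, 21.3 and 21.1 CPM for psmg1, and the inhibitor psmf1 was at 14.3, 15.3, 17 and 18.2 CPM. The inducible subunits were at 7.44, 12.1, 11.8 and 10.3 CPM for psmb10, 0, 1.32, 1.03 and 0.707 CPM for psmb8a and 0.543, 0.189, 0.477 and 0.707 CPM for psmb9a. The 4 libraries of psmb13a were at 0, 0.567, 0.239 and 0.157 CPM, all under 1 CPM (log2 fold change -1.98 ± 1.03, edgeR adjusted p = 0.998).

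The activator psme4a had the highest fold of the 56 genes at this dose. It was at 124, 117, 188 and 46.9 CPM in libraries 1, 2, 4 and 5, against 62.7, 44.6, 57.7 and 46.3 CPM in the controls. Libraries 1, 2 and 4 were well above all controls and library 5 was among them. The log2 fold change was 1.17 ± 0.27 and did not pass the test (edgeR adjusted p = 0.24, with 0.000396 to 0.842 over the alternatives). Without library 5 it was 1.44 with an edgeR adjusted p of 0.000396, when 0.552% of all genes passed, and by DESeq2 on all libraries its adjusted p was 0.0258, when 0.32% passed. Its copy psme4b was at 108, 84.8, 91.3 and 85.9 CPM, and the chaperone psmd5 at 17.1, 16.4, 12.6 and 13.7 CPM (log2 fold change 0.50 ± 0.23, edgeR adjusted p = 0.998).

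At 10 µg/L, the core and cap sums overlapped the controls, and psme4a, psme4b and psmd5 were above the highest control in every library. No proteasome gene passed the edgeR test, when 43 genes (0.225% of all) did. At an unadjusted p under 0.05, psme4a, psme4b and psmd5 were higher and psme3 lower, 4 of 56 when 8.23% of all genes were under it. The median log2 fold change was -0.01 over the 56 genes and -0.02 over all genes, with 28 genes on each side of 0. The median of the 56 was 0.05 without library 3, which stood apart, when no proteasome gene was called either. The core sum was 951, 767, 712, 1299 and 919.9 CPM and the cap sum 991, 820, 730, 1351 and 960 CPM, which overlapped the controls on both ends.

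The activator psme4a (ENSDARG00000087911, GRCz11 chromosome 13, 35689749 to 35744963) was at 120.5, 111, 111, 125 and 114 CPM, and all 5 libraries lay above the highest control of 62.7 CPM. The fold was 2.20 (log2 fold change 1.14 ± 0.26, edgeR adjusted p = 0.0817, with 0.000935 to 0.264 over the alternatives). It passed by DESeq2 (adjusted p = 0.00589), which called 1.3% of all genes. It passed in a fit of these groups alone (edgeR adjusted p = 0.000935), which called 0.871%. With library 5 of the 1 µg/L group left out it passed again (edgeR adjusted p = 0.00159), when 0.689% did. The copy psme4b (ENSDARG00000018742, GRCz11 chromosome 12, 23991276 to 24053079) was at 97.3, 137, 159, 128 and 102 CPM against 74.5, 72.3, 87.6 and 93.5 CPM in the controls. All 5 were above the highest control, at a fold of 1.52 (log2 fold change 0.61 ± 0.17, edgeR adjusted p = 0.214; DESeq2 adjusted p = 0.0462). The sum of both copies was 117 to 145 CPM in controls and 216 to 269.7 CPM at 10 µg/L, with no overlap.

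**Figure D4:**
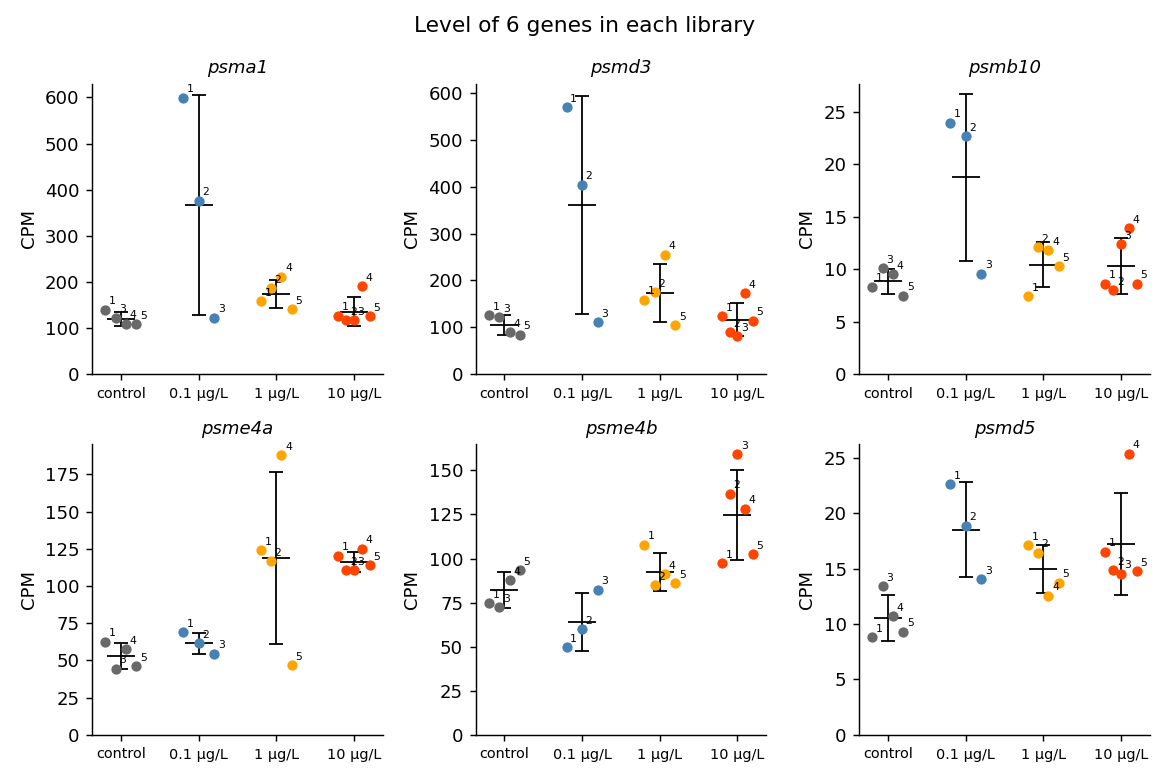
CPM of psma1, psmd3, psmb10, psme4a, psme4b and psmd5 in each library by group; points are libraries with their numbers, and bars are the mean and SD. In psme4a all 5 libraries at 10 µg/L and 3 of 4 at 1 µg/L lie above the highest control of 62.7 CPM.

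At 1 and 10 µg/L, the levels of psme4a and of clock genes differed from the controls in the same libraries. The summed level of nr1d1, per1a, ciarta, dbpb and arntl1a, which mark circadian phase, was 980.0 to 1306 CPM in controls and 153 to 214 CPM at 10 µg/L. At 1 µg/L it was 143, 156 and 126 CPM in libraries 1, 2 and 4, where psme4a was high, and 1128 CPM in library 5, where it was 46.9 CPM. At 0.1 µg/L it was 910.5 to 1114 CPM, with psme4a at 54.6 to 68.9 CPM. In controls nr1d1 made up most of this sum. The gene arntl1a ran the other way, at 27.7 to 42.9 CPM in controls and 63.9 to 99.5 CPM at 10 µg/L. At 0.1 µg/L per1a was at 15.9, 22.9 and 80.1 CPM, against 65.3 to 87.0 CPM in controls. There ciarta was at 178, 217 and 250 CPM, against 236 to 318 CPM, and arntl1a lay inside the control range. The lens marker sum also differed in the libraries where psme4a was high. It was 664 to 919 CPM in controls, 1053 to 2049 CPM at 10 µg/L, 1059, 1293 and 1137 CPM in libraries 1, 2 and 4 at 1 µg/L and 631 CPM in library 5. It was 3540, 2205 and 1088 CPM at 0.1 µg/L, also above all controls, where psme4a was 54.6 to 68.9 CPM. All 5 lens markers were above all controls in libraries 1, 2 and 4 at 1 µg/L, and cryba1l1 and crygn2 were so in every library at 10 µg/L. The part of circadian phase at sampling and of lens tissue in the psme4a values was not tested.

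The base chaperone psmd5, a negative regulator of cap assembly in mammals, was at 16.5, 14.9, 14.6, 25.4 and 14.8 CPM, all above the highest control of 13.4 CPM, at a log2 fold change of 0.70 ± 0.22 (edgeR adjusted p = 0.274). At 0.1 and 1 µg/L every library lay above at least 3 of the 4 controls. The activator psme3 was at 7.26, 5.27, 9.35, 10.7 and 6.08 CPM against 10.6, 11.4, 13.3 and 8.84 CPM, with overlapping ranges (log2 fold change -0.52 ± 0.22, edgeR adjusted p = 0.514). Groups did not overlap on the higher side for 3 of 56 genes, when 2.32% of all genes did not, and on the lower side for PSMA2 alone, at 42, 41.6, 40.9, 38.2 and 37.9 CPM, when 2.83% of all genes did not. The sum of PSMA2 and psma2 was 79.0 to 95.8 CPM against 82.7 to 99.5 CPM, which overlapped.

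The other subunits overlapped the controls at 10 µg/L. In the alpha ring the values were 127, 117, 117, 191 and 126 CPM for psma1, 59.96, 50.3, 49.1, 66.3 and 56.1 CPM for psma3, 73.5, 57.9, 55.7, 101 and 69.1 CPM for psma4 and 78.3, 65.7, 54.3, 122 and 87.9 CPM for psma8. The constitutive beta genes were at 54, 45.2, 35.8, 77.7 and 49.1 CPM for psmb2, 37.7, 32.2, 31.7, 50.6 and 38.8 CPM for psmb3 and 75.6, 44, 50.1, 102 and 65.2 CPM for psmb4. The catalytic genes were at 34.2, 33.3, 25.5, 51.6 and 36.7 CPM for psmb5, 77.4, 59.2, 49.4, 106 and 63.3 CPM for psmb6 and 98.4, 63.5, 53.3, 115 and 96 CPM for psmb7. Library 4 was the highest and library 2 or 3 the lowest for each of these beta genes. In the cap the values were 68.3, 66.1, 56.6, 93.1 and 66.1 CPM for psmc2, 66.5, 48.7, 49.1, 81.8 and 56.3 CPM for psmc5 and 124, 89.8, 81.5, 172 and 114 CPM for psmd3. The lid genes were at 69.9, 56.2, 45.9, 91.6 and 61 CPM for psmd13 and 55, 38.7, 30.5, 64.8 and 47.9 CPM for psmd14. Library 4 was also the highest for these 5 cap genes. The chaperones were at 26.7, 18.4, 17.1, 33 and 19 CPM for pomp and 19.3, 21.8, 21.6, 26.5 and 18.2 CPM for psmg1, and the inhibitor psmf1 was at 14.7, 17.6, 15.2, 22.1 and 15.3 CPM. The inducible subunits were at 8.62, 7.98, 12.4, 13.9 and 8.63 CPM for psmb10, 0.498, 0.232, 0.0984, 0.45 and 0.0707 CPM for psmb8a and 0.498, 0.0775, 0.492, 1.53 and 1.2 CPM for psmb9a. The gene psmb13a was at 0.285, 0.0775, 0, 0.9 and 0.141 CPM, under 1 CPM in all 5 libraries (log2 fold change -1.74 ± 0.94, edgeR adjusted p = 0.694).

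**Figure D5:**
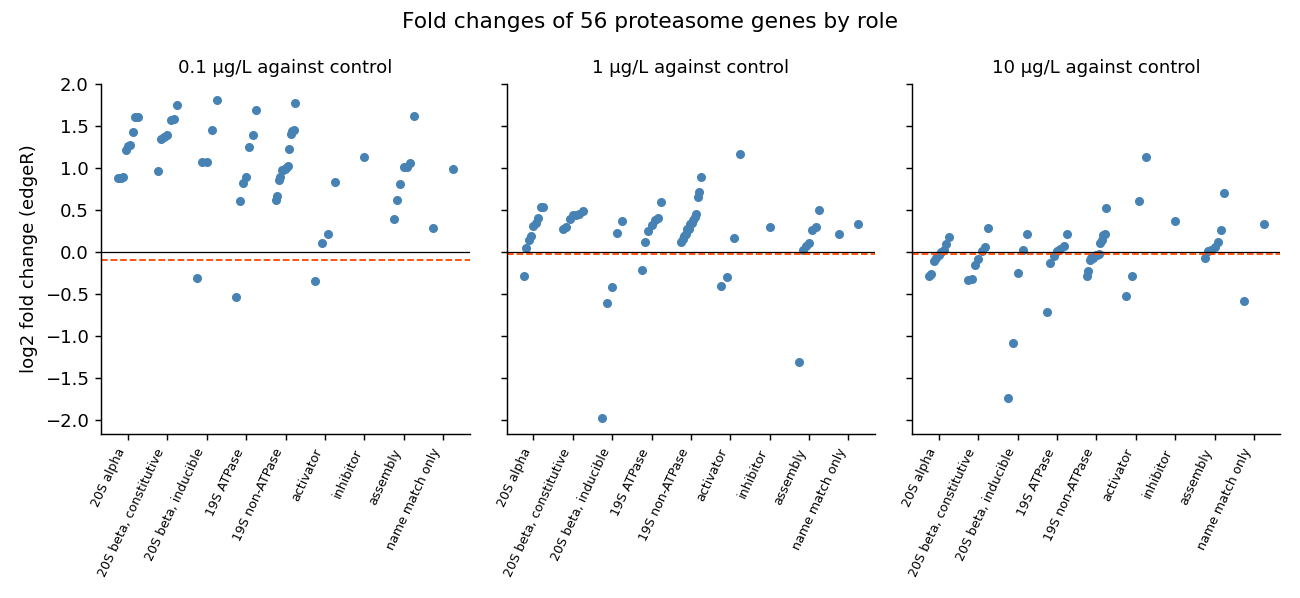
Log2 fold change against control of the 56 tested genes by role at each dose (edgeR fit of all 16 libraries); points are genes and the dashed line is the median of all genes tested. The median of the points is 1.02 at 0.1 µg/L, 0.30 at 1 µg/L and -0.01 at 10 µg/L, and psme4a is the highest point at the upper doses, at 1.17 and 1.14.

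The medians did not increase with dose. The comparisons with control share the control libraries, and the order of the medians was 1.02, 0.30 and -0.01 from the lowest dose to the highest. Without libraries 1 and 2 at 0.1 µg/L the medians were 0.07, 0.32 and 0.01, so that the lowest dose no longer led. Between 10 and 1 µg/L 0 of 19092 genes passed by edgeR, and DESeq2 called 8 genes (0.0419% of all), none of them a proteasome gene. Of the 56 genes 2, psme4b higher and psmb4 lower, had an unadjusted p under 0.05, when 2.88% of all genes did. The log2 fold change was below 0 for 45 of 56, with a median of -0.30 against 0.00 over all genes, which was -0.13 without library 4 of the 1 µg/L group. A test for any difference among the 4 groups called 16 of the 56 genes, when 2.34% of all genes were called (edgeR adjusted p from 0.0212 for psma4 to 0.0471 for PSMA2).

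These 16 were 7 core genes (psma1, psma3, psma4, PSMA2, psmb2, psmb3 and psmb6), 5 cap genes (psmc2, psmc5, psmd3, psmd13 and psmd14), the activators psme4a and psme4b, and the chaperones pomp and psmg1. No inducible subunit was called. The count changed with single libraries. The count was 0 with any 1 of 3 libraries left out (library 1 or 2 at 0.1 µg/L, or library 2 at 10 µg/L). Of all genes, 0.363%, 0.297% and 0.405% were called in these fits, in the same order. It was 1 or 2 with any 1 control, library 1 or 2 at 1 µg/L, or library 1, 3 or 5 at 10 µg/L left out. In those fits 0.647% to 1.24% of all genes were called. Without library 4 or 5 at 1 µg/L or library 4 at 10 µg/L it was 19, 14 and 24, when 2.45%, 2.26% and 4.3% were. Leaving out library 3 of the 0.1 µg/L group gave 45, when 27.4% of all genes were called, and DESeq2 on all libraries gave 40, when 12.5% were.

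Genes that work with the proteasome were read from 4 lists. Of 21 shuttle and associated factors, which bring substrates to the cap or trim ubiquitin, none passed in any comparison, and their median log2 fold change was 0.54 at 0.1 µg/L, 0.16 at 1 µg/L and 0.05 at 10 µg/L. Their sum was 1950.4, 1666.5 and 1008.2 CPM at 0.1 µg/L, against 978 to 1075 CPM in controls, with library 3 inside that range. At 0.1 µg/L the lowest p were those of the shuttle factor rad23b (0.95 ± 0.24), the ubiquitin receptor adrm1 (1.61 ± 0.41) and the shuttle factor ubqln4 (0.76 ± 0.22), with edgeR adjusted p of 0.0858, 0.0858 and 0.095. The lowest p at 1 µg/L were those of rad23b (0.44 ± 0.22), the segregase vcp (0.44 ± 0.29) and txnl1 (0.50 ± 0.36). At 10 µg/L they were akirin2, which brings proteasomes into the nucleus (0.38 ± 0.16), zfand5a (-0.29 ± 0.13) and ecpas (0.50 ± 0.26); none passed.

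Of the genes for ubiquitin and its activating enzymes, ubc, ubb, rps27a and uba1 are described, and none of these 4 passed in any comparison. The polyubiquitin gene ubc was at 725, 876, 706 and 602 CPM in the controls and at 1758, 1527 and 819.8 CPM at 0.1 µg/L, with libraries 1 and 2 above each control and library 3 among them. The fusion gene rps27a was at 118, 156, 157 and 117 CPM in the controls and at 378, 272 and 87.6 CPM at 0.1 µg/L, where library 3 lay below the controls. Log2 fold changes at that dose were 0.91 ± 0.24 for ubc and 0.84 ± 0.32 for rps27a (edgeR adjusted p = 0.0864 and 0.158). At 1 µg/L they were 0.86 ± 0.35 for the polyubiquitin gene ubb, 0.55 ± 0.23 for ubc and 0.17 ± 0.15 for the activating enzyme uba1, and at 10 µg/L 0.53 ± 0.22 for ubc, 0.39 ± 0.33 for ubb and 0.14 ± 0.14 for uba1.

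Transcription factors that act on proteasome genes in mammals, listed with the Nrf2 regulators keap1a and keap1b, had summed levels of 328 to 417 CPM over all libraries. Of these 15 genes 14 were tested and none passed. Their sum was 339.7 to 363 CPM in controls and 328, 354 and 352 CPM at 0.1 µg/L, where library 1 was below all controls. Single genes differed more than the sum, and hsf1 was at 0.870, 3.01 and 12.6 CPM there, against 9.64 to 12.1 CPM in controls. In both libraries 1 and 2, 4 of the 15 genes were below all controls and 2 above. Of all genes, 42.3% and 36.2% were below all controls in libraries 1 and 2, and 32.3% and 28.5% above. The sum was 376, 366, 405 and 345 CPM at 1 µg/L, with libraries 1, 2 and 4 above all controls, and 341 to 417 CPM at 10 µg/L. Within it keap1b was at 44.2, 36.3, 68.8 and 33.7 CPM at 1 µg/L, against 28.2 to 39.5 CPM in controls. The lowest p at 0.1 µg/L were those of the heat shock factor hsf1 (-0.99 ± 0.56), nfyba (0.24 ± 0.15) and nfyc (-0.23 ± 0.17). At 1 µg/L they were the Nrf2 repressor keap1b (0.42 ± 0.22), nfya (-0.28 ± 0.19) and keap1a (0.45 ± 0.35), and at 10 µg/L nfya (-0.54 ± 0.18), nfyc (0.37 ± 0.15) and the Nrf2 gene nfe2l2a (-0.33 ± 0.15).

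Genes of class I antigen presentation, which uses the peptides that inducible proteasomes make, were below the controls on average at the upper doses, though none of the 11 tested of 15 passed. The median was 0.31 at 0.1 µg/L, -0.35 at 1 µg/L and -0.62 at 10 µg/L, where 0 of 11 were above 0, when 47.2% of all genes were. The sums were 149.6 to 206 CPM in controls and 103 to 187 CPM at 10 µg/L, which overlapped. The lowest p at 0.1 µg/L were those of the light chain b2m (0.76 ± 0.34), mhc1zba (0.47 ± 0.25) and irf1b (0.41 ± 0.37). The lowest p at 1 µg/L were those of stat1b (-1.75 ± 0.80), b2m (-0.69 ± 0.33) and mhc1uba (-0.43 ± 0.32), and at 10 µg/L mhc1zba (-0.72 ± 0.22, edgeR adjusted p = 0.277), irf1a (-1.95 ± 0.88) and stat1b (-1.63 ± 0.74). Counts of irf1a were low, at 0.371 to 0.927 CPM in controls and 0 to 0.354 CPM at 10 µg/L. In controls stat1b ran from 1.11 to 8.19 CPM and was highest in library 5.

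Sums of immune and germ cell markers were low in all libraries. Neutrophil and macrophage markers (7 found) summed to 15.7 to 22.9 CPM in controls and 16.0 to 24.4 CPM in exposed larvae, with lyz at 0 in 9 of 16 libraries. In libraries 1 and 2 at 0.1 µg/L, 2 of the 7 were above all controls and 0 below. These were mpx, at 2.24, 2.49 and 2.15 CPM at 0.1 µg/L against 0.321 to 1.19 CPM, and spi1b, at 3.48, 4.67 and 2.33 CPM against 1.41 to 2.24 CPM. Of all genes, 32.3% and 28.5% were above all controls in libraries 1 and 2. Lymphocyte and thymus markers summed to 7.89 to 10.4 CPM in controls and 5.12 to 10.8 CPM in exposed larvae, and germ cell markers to 1.32 to 3.86 CPM and 0.465 to 4.85 CPM, with libraries 1 and 2 at 0.1 µg/L above all controls at 4.85 and 4.67 CPM. In the authors' deposited table, 5 of the 57 genes were under an adjusted p of 0.05 at 0.1 µg/L (psmd3, psmc1b, psma1, psmb6 and psma4), when 0.28% of all genes were. The authors' deposited table had psme4a at an adjusted p of 0.0487 at 1 µg/L, when 0.443% of genes were under 0.05. At 10 µg/L the authors' deposited table had psme4a at 4.6e-12 and psme4b at 0.0479, when 1.53% of genes were under 0.05.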

How the data were processed

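RNA of 16 libraries of whole larvae was measured by poly(A)-selected, directional (dUTP) sequencing on a NovaSeq, per the labels' protocols. The authors deposited raw counts per gene in 3 tables, 1 per dose, each with the control columns, which were identical across tables; per the submitters' processing notes, featureCounts, HISAT2, fastp, DESeq2 and the build GRCz11 were used, with no versions named. Neither the strand setting nor an annotation release is given in the sources used here. The deposited tables also hold the authors' log2 fold changes and p-values for each dose, used only where named.

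The tables were joined by gene ID (26183 genes, 24560 in all 3 tables), and 10528 cells of genes missing from a table were filled with 0. Libraries were assigned to groups by column name; the column numbers of controls and of 1 µg/L differ from the sample titles, so those columns were placed in a group only. Total counts per library were 9708464 to 13862232, and 95% Wilson intervals of the share of reads on proteasome genes, which cover counting error only, were within 0.004 percentage points. Counts were tested with edgeR 4.0.16 (R 4.3.3; filterByExpr, TMM scaling, robust quasi-likelihood F test, 1 mean per group, 12 residual degrees of freedom) over 19092 genes in 1 fit of all libraries, with Benjamini-Hochberg adjustment and a threshold of 0.05; log2 fold changes are edgeR's, with a prior count, and ± is the SE from the fit. CPM are per TMM-scaled library. Levels per kilobase use the deposited gene lengths. The test code was checked on simulated data.

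Alternatives were DESeq2 size factors, library size only, no filter, DESeq2 1.42.0, limma-voom (limma 3.58.1), the compared groups only, each library left out, libraries 1 and 2 at 0.1 µg/L left out, and a replicate block. Library values are printed for the genes called, the 5 lowest p at each dose, the highest gene per kilobase of each role, the catalytic pairs and pomp (28 genes); of the pathway lists the 3 lowest p at each dose are named, apart from 1 gene that is not reported here. Other genes were named after their values were seen. The genes and lists were chosen with earlier results of these data known. RefSeq names are from the GRCz12tu table, whose coordinates were not used.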

Additional observations from a re-analysis of the deposited data

Results flagged for a closer look

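In 84 group and gene combinations of 4 or 5 libraries, over the 28 genes with printed values, a gap test on the most extreme library marked 2, both in library 4 at 10 µg/L; chance marks about 1 in 20. The alpha ring gene psma1 was at 191 CPM there, while the other 4 libraries lay between 117 and 127 CPM. The chaperone psmd5 was at 25.4 CPM there, while the other 4 lay between 14.6 and 16.5 CPM. Library 4 was also the highest of its group for 37 of 42 core and cap genes and had the highest muscle, liver and exocrine pancreas marker sums of its group, at 3997, 814 and 854 CPM; their part in these values was not tested.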

How the results depend on the processing

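At 0.1 µg/L the median log2 fold change of the 56 genes moved from 1.02 to 0.464 with library size only, when the median over all genes was -0.50, and to 0.074 without libraries 1 and 2; leaving out 1 library at a time gave 0.74 to 1.354. Calls there were 36 by DESeq2 and 0 to 46 with 1 library left out, the 46 without library 3. At 1 µg/L 1 gene, psme4a, was called by DESeq2 and with 1 library left out the count was 0 to 1 (1 without library 5). At 10 µg/L 2 were called by DESeq2, 1 in the compared groups only and 0 to 1 with 1 library left out (1 without library 5 at 1 µg/L). The count of 16 in the test of the 4 groups became 0 with library size only, 40 by DESeq2, 1 by limma-voom, and 0 to 45 with 1 library left out. Of all genes, 2.34% were called in the main fit, 0.267% with library size only, 12.5% by DESeq2 and 1.25% by limma-voom. With 1 library left out, 0.297% to 27.4% of all genes were called. The causes were not tested. The log2 fold change of psma4 at 0.1 µg/L was 0.00 without libraries 1 and 2 and turned in sign. The labels do not say whether column numbers pair the samples, and the correlations between libraries cannot settle it. The 18 same-number pairs had correlations of -0.441 to 0.447 (median -0.102, against 0.015 for other pairs). Of 16 libraries, 4 correlated best with their own number. With the replicate block 0 of the 56 genes were called in the test of the 4 groups, when 53 of 19092 genes (0.278%) were. Counts of psmb8a, psmb9a, psmb12, psmb13a and psmd10 were low, with SE of 0.62 to 1.06 on the log2 scale, which limits what could be detected in them.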
